A study of Mus musculus with 10 samples.

Results

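The genes described here are the 29 mouse genes of cholesterol synthesis, uptake, esterification and efflux listed by symbol, out of 57010 Ensembl genes in the deposited count table. All 29 matched a row by symbol, and all 29 passed the filter on low counts in both fits described below, with 58 to 11590 reads per gene and library. The study compared MMTV-PyMT mammary tumours with both copies of Rhbdd1, the gene of the rhomboid protease RHBDL4, knocked out (PyMT; RHBDL4 -/-, "KO", 5 libraries) with tumours of wild-type animals (PyMT; RHBDL4 +/+, "WT", 5 libraries). Both groups carry the MMTV-PyMT transgene, in which a mammary tumour virus promoter drives the polyoma middle T oncogene mainly in mammary epithelium, and both are labelled untreated and were taken 5 weeks after tumour onset. RNA came from whole tumour tissue, so a lower level in a tumour can mean fewer cells of a type or less RNA per cell, which cannot be told apart. The sources used here do not give strain, age, sex or the way the gene was deleted.

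Cholesterol is built from acetyl-CoA in the endoplasmic reticulum and cytosol. The mevalonate pathway makes isoprenoid units, squalene synthase commits them to sterols, and a chain of demethylases, reductases and isomerases turns lanosterol into cholesterol. When sterols in the endoplasmic reticulum run low, SREBP transcription factors move to the Golgi, are cut there and switch on these enzymes together, binding sterol regulatory elements (SRE) beside the general factors NF-Y and Sp1. When sterols are high, oxysterols activate the nuclear receptors LXR alpha and LXR beta, which raise the exporters ABCA1 and ABCG1 and the ubiquitin ligase MYLIP, which lowers cholesterol uptake.

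The promoters of the synthesis enzymes share elements that the choice of genes did not use. RefSeq promoters (GRCm38.p6, a different build from the GRCm39 of the counts) were at hand for 23 of the 29 genes. None was at hand for Fdps, Fdft1, Sqle, Npc1, Stard4 and Abcg1, which were therefore not searched. The 250 bases before each transcript start were searched on both strands. A gene was counted if any of its listed promoters held the motif. The NF-Y box (CCAAT) was present in 16 of 17 synthesis enzymes (94.1%), against 37.5% of all 27025 genes with a promoter. Acat2 was the synthesis enzyme without one. The box occurred in 3 of 6 genes of transport, esterification and LXR. The Sp1 box (GGGCGG) was present in 15 of the 17 enzymes (88.2%), against 35.4% of all genes. The strict SRE (TCACNCCAC, 1.22% of all genes) occurred in 1 of the 23, Hmgcs1, as TCACCCCAC starting 137 bases before the start. An LXR element, searched as a direct repeat of AGGTCA with 4 spacer bases and at most 1 mismatch in each copy of the repeat, occurred in 0 of the 23 and in 1.71% of all genes. No match of one of these motifs overlapped a match of another in the 23 genes. A match is a run of letters and not a shown binding site. The starts are those of RefSeq. In the GENCODE M21 annotation the windows of Lbr and Tm7sf2 lie inside their genes, as do parts of others, such as Idi1.

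The upstream sequences below belong to Hmgcs1, which holds the SRE, and to the 3 synthesis enzymes whose KO and WT levels did not overlap in at least 1 of the fits given below. They are printed 5′ to 3′ from 250 bases upstream to the base before the start, with the NF-Y boxes and the SRE in capitals. Read on this strand, most of the boxes appear as ATTGG, the reverse complement of CCAAT.
Hmgcs1, chr13:119690101-119690350, plus strand: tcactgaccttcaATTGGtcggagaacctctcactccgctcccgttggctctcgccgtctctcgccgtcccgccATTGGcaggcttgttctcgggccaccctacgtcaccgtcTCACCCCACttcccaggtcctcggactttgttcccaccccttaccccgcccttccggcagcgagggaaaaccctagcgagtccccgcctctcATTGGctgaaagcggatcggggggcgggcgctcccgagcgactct
Mvk, chr5:114444019-114444268, plus strand: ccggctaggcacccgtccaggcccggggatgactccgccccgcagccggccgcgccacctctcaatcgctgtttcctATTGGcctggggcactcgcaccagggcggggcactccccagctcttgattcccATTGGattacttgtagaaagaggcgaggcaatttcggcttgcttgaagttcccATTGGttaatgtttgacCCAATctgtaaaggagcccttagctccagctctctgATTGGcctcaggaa
Idi1, chr13:8885356-8885605, plus strand: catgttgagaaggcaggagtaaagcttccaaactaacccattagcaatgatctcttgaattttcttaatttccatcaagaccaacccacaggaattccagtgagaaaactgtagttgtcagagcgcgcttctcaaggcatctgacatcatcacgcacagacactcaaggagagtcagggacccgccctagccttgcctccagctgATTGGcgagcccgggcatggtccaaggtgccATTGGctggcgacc
Nsdhl, chrX:72918271-72918520, plus strand: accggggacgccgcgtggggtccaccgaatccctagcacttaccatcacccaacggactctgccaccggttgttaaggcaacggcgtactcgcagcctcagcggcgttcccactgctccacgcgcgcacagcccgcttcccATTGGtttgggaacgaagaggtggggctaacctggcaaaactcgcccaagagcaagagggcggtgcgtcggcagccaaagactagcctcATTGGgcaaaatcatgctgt
Mvk held 5 NF-Y boxes, Hmgcs1 held 3, and Idi1 and Nsdhl held 2 each. The last box before the RefSeq start lay 45 bases upstream in Hmgcs1, 20 bases in Nsdhl and 14 bases in both Mvk and Idi1. In GENCODE M21 the Idi1 gene begins at base 8885501, inside the printed window, and both of its boxes lie after that base.

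**Figure D1:**
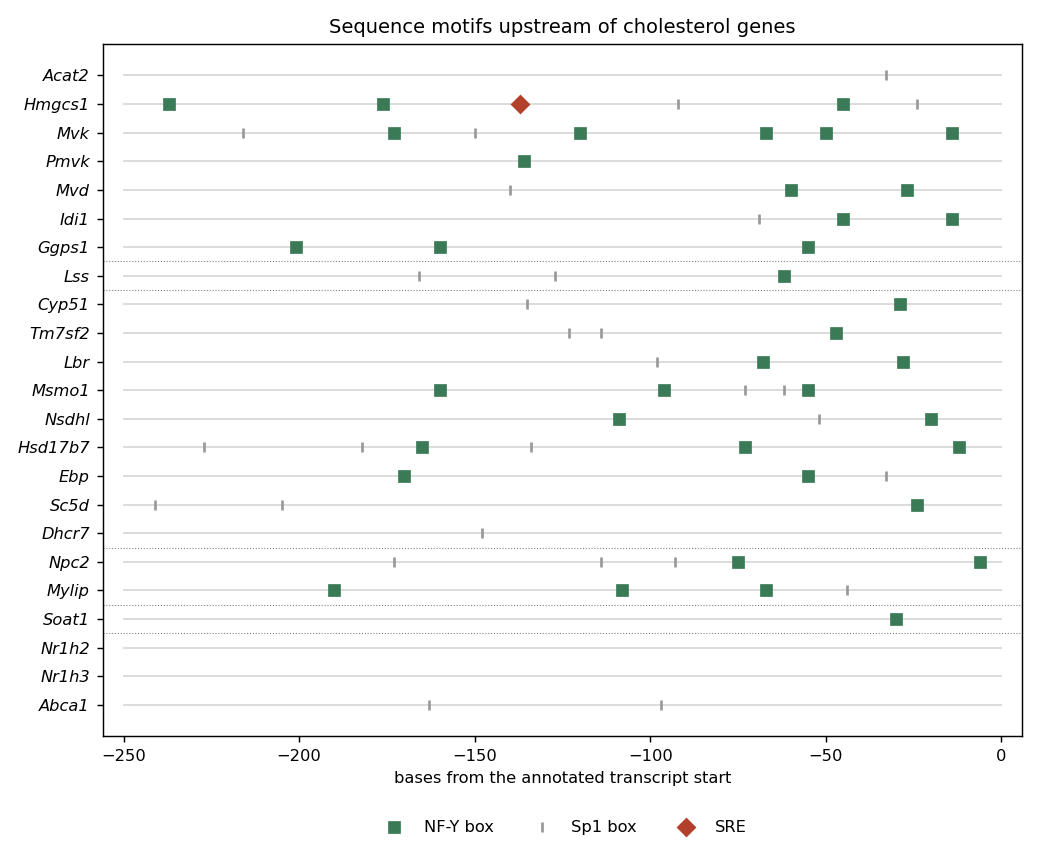
Positions of the NF-Y box (squares), the Sp1 box (ticks) and the SRE (diamond) in the 250 bases before the transcript start of 23 genes, in bases from the start, with the first RefSeq promoter of each gene drawn. Dotted lines separate the steps from early mevalonate enzymes at the top to LXR and efflux genes at the bottom; the only SRE is in Hmgcs1, and Acat2, Dhcr7, Nr1h2, Nr1h3 and Abca1 show no NF-Y box in the promoter drawn (Dhcr7 has 2 in another of its 3 promoters).

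The libraries held 25.7 to 43.3 M (mega) reads assigned to genes. Rhbdd1 stood at 13.2 to 22.3 CPM in KO libraries and 25.0 to 45.4 CPM in WT libraries, so the groups did not overlap. Its log2 fold change was -1.14 ± 0.16 (SE) without WT 5 and -1.05 ± 0.20 with it (edgeR adjusted p = 0.113 and 0.669), and the deleted part of the gene is not given in the labels. CPM here are counts per M reads of the library, scaled by TMM, a factor that lines up the bulk of genes between libraries. WT replicate 5 (WT 5) stood apart. Its 12 luminal epithelial markers summed to 186 CPM, against 4024 to 7367 CPM in the other 9 libraries, and Epcam was at 29.1 CPM against 1043 to 1594 CPM. Esr1, among the 12, went the other way, at 58.4 CPM against 2.96 to 20.5 CPM. Skeletal muscle markers summed to 139619 CPM there, against at most 1556 CPM, and adipocyte markers to 31503 CPM against at most 3100.4 CPM. None of the 12 luminal markers was at 0 in WT 5. Its TMM factor was 0.588, against 1.01 to 1.10 in the others. Each result is therefore given with all 10 libraries and with the 9 that leave WT 5 out. In addition, 3 pairs of libraries share the leading number of their names (KO 3 and KO 4, WT 1 and WT 2, WT 3 and WT 4), without a label that ties the number to an animal. The p-values therefore measure the spread between these libraries, part of which may be technical. If libraries that share a number are not independent, those p-values can be too small. Counted by number there are 4 KO and 3 WT units, or 2 WT units without WT 5. The correlation of libraries that share a number was estimated in limma-voom at 0.686 with 10 libraries and 0.366 with 9.

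Most enzymes of cholesterol synthesis had a lower level in KO than in WT tumours, and most genes of efflux and storage did not; the difference between these sets was not tested. With all 10 libraries 17 of 20 synthesis enzymes had a negative log2 fold change, with a median of -0.30. Without WT 5 it was 19 of 20, with a median of -0.30 as well. The 9 genes of transport, esterification and LXR had 4 negative values of 9 and a median of 0.09 with all 10 libraries, and 2 of 9 and a median of 0.19 without WT 5. Over all genes tested, 56.2% were negative with a median of -0.06 in 10 libraries, and 46.8% with a median of 0.03 in 9 libraries. The 10-library count of enzymes rests in part on the scaling. With unscaled library sizes the median of all genes was 0.07 in place of -0.06, and 14 of 20 enzymes were negative with a median of -0.18, since Ggps1, Sqle and Sc5d changed sign. Across every alternative tried, 14 of the 20 enzymes kept a negative sign in both fits.

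No single member passed the test over all genes. In edgeR's quasi-likelihood test with Benjamini-Hochberg adjustment, 0 of 29 members were called in either fit, where 0% of 18577 genes were called with 10 libraries and 0.0105% of 19016 genes with 9. The 2 genes called with 9 libraries were the cyclin gene Ccnb2 (lower) and the microtubule gene Map2 (higher), both named after their values were seen. The lowest adjusted p of a member was 0.669 with 10 libraries and 0.288, for Idi1, with 9. At an unadjusted p under 0.05, 7 of 29 members (24.1%) were lower in KO with 10 libraries, against 4.44% of all genes, and 0 were higher, against 2.56%. With 9 libraries 8 of 29 (27.6%) were lower, against 5.85%, and 1 was higher, against 5.74%. All 8 that were lower are synthesis enzymes. The groups did not overlap, with KO below WT, for 2 of 29 members in 10 libraries, against 1.18% of all genes, and for 3 in 9 libraries, against 3.44%. With KO above WT it was 0 members in 10 libraries, against 0.807%, and 1 in 9 libraries, against 2%. The enzymes of a pathway are not independent of each other, and no test was made on these counts. With counts summed over libraries that share a leading number, 5 members were lower at that p in 10 libraries and 3 in 9, and with that number as a block 4 and 4. Over all genes, in either direction, the sums gave 957 of 19371 and 1044 of 21078, and the block 324 of 18577 and 1182 of 19016. Leaving out 1 further library moved the 8 by more than 1.5 times without WT 4 (4 members) and without KO 5, WT 2 or WT 3 (5 members each), and the 7 without KO 5 (4 members). Over all genes, in either direction, 1651 of 19462 had that p without WT 4 and 2075 of 18732 without KO 5. It was 1848 of 19424 without WT 2 and 1823 of 19461 without WT 3. With 10 libraries it was 781 of 18919 without KO 5. DESeq2 and limma-voom called 0 members in 10 libraries, where they called 54 and 17 of 18577 genes. In 9 libraries limma-voom called 0 members and 143 of 19016 genes. DESeq2 called 1 member, Idi1 (adjusted p = 0.0229), and 463 of 19016 genes in all. The adjusted p of Idi1 ran up to 0.932 over the alternatives.

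**Figure D2:**
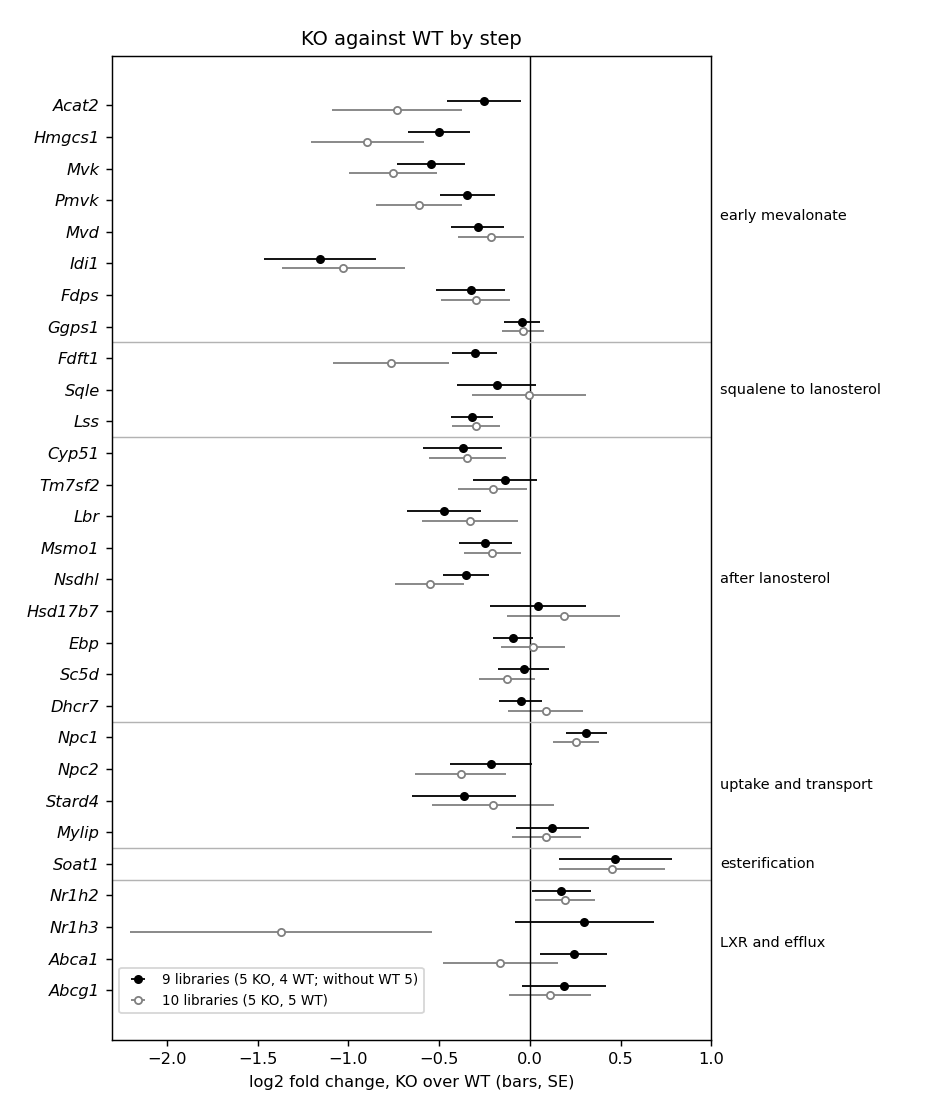
Log2 fold change of KO over WT for each of the 29 genes, with bars of 1 SE, by step of the pathway. Filled points are the fit on 9 libraries (5 KO, 4 WT) and open points the fit on all 10; in the upper block Idi1 lies at -1.16 and -1.03, and near the bottom Nr1h3 lies at 0.30 and -1.37.

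The 8 early enzymes, from acetoacetyl-CoA to farnesyl and geranylgeranyl diphosphate, had the most negative median of the steps. Their median log2 fold change was -0.67 with 10 libraries and -0.33 with 9. The 3 enzymes from farnesyl diphosphate to lanosterol had a median of -0.30 in both fits, so the ranking with 9 libraries was narrow. Of the 8, 7 were negative in every alternative. Ggps1 was the exception, near 0 in both fits (-0.04 and -0.04) and positive with unscaled library sizes. Ggps1 makes the geranylgeranyl donor of protein prenylation, a branch off the sterol route.

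Idi1 (ENSMUSG00000058258), the isomerase that makes dimethylallyl diphosphate, showed the largest difference among the enzymes in the 9-library fit. It stood at 16.1, 14.4, 6.32, 6.03 and 13.5 CPM in KO 1 to 5, against 20.5, 26.7, 26.9, 27.5 and 13.1 CPM in WT 1 to 5. Every KO library was below WT 1 to 4, and WT 5 lay inside the KO range. KO 3 and KO 4, which share a leading number, were the lowest. In GENCODE M21 an unclassified transcript lies opposite 9.22% of its exon bases. The mean was 11.3 ± 4.74 CPM in KO (SD, n = 5) and 25.4 ± 3.26 CPM in WT 1 to 4 (SD, n = 4). This is a log2 fold change of -1.16 ± 0.31 (SE) with 9 libraries and -1.03 ± 0.34 with 10 (edgeR adjusted p = 0.288 and 0.669).

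Mvk (ENSMUSG00000041939), mevalonate kinase, did not overlap between the groups in either fit. Its levels were 7.22, 7.91, 5.34, 7.83 and 8.41 CPM in KO 1 to 5, against 8.96, 10.1, 13.3, 11.0 and 18.7 CPM in WT 1 to 5. The gap between the groups was narrow, with the highest KO library at 8.41 and the lowest WT library at 8.96 CPM. KO over WT, this gave a log2 fold change of -0.55 ± 0.19 with 9 libraries and -0.76 ± 0.24 with 10 (edgeR adjusted p = 0.341 and 0.669).

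Hmgcs1 (ENSMUSG00000093930), the synthase that makes HMG-CoA, stood at 70.9, 62.0, 54.0, 69.7 and 53.7 CPM in KO 1 to 5, against 59.9, 106, 88.2, 100.4 and 222 CPM in WT 1 to 5. WT 1 lay inside the KO range and the other WT libraries above it. The fit gave a log2 fold change of -0.50 ± 0.17 with 9 libraries and -0.89 ± 0.31 with 10 (edgeR adjusted p = 0.341 and 0.669). Pmvk (ENSMUSG00000027952), the next kinase after Mvk, stood at 37.0, 36.3, 30.0, 37.7 and 28.5 CPM in KO 1 to 5, against 38.8, 34.8, 53.4, 47.0 and 84.7 CPM in WT 1 to 5. Its groups overlapped through WT 2 alone. On the log2 scale KO differed from WT by -0.34 ± 0.15 with 9 libraries and -0.61 ± 0.24 with 10 (edgeR adjusted p = 0.427 and 0.669).

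The other 4 early enzymes had an unadjusted p above 0.05 in both fits. Fdps, farnesyl diphosphate synthase, ranged from 52.7 to 101 CPM in KO and from 79.5 to 105 CPM in WT libraries. Acat2, the cytosolic thiolase of the first step, ranged from 26.7 to 50.4 CPM in KO and from 40.4 to 50.2 CPM in WT 1 to 4, with WT 5 at 133 CPM. In GENCODE M21 Fdps shares 26.7% of its exon bases with Gm43738 on the same strand, so its counts are uncertain. The near-identical relative of Acat2, Acat3, was at 1.23 CPM or less in every library. Mvd, the decarboxylase, ranged from 10.0 to 14.7 CPM in KO and from 10.6 to 16.1 CPM in WT libraries, and Ggps1 from 27.3 to 32.9 CPM in KO and from 27.7 to 34.4 CPM in WT libraries.

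**Figure D3:**
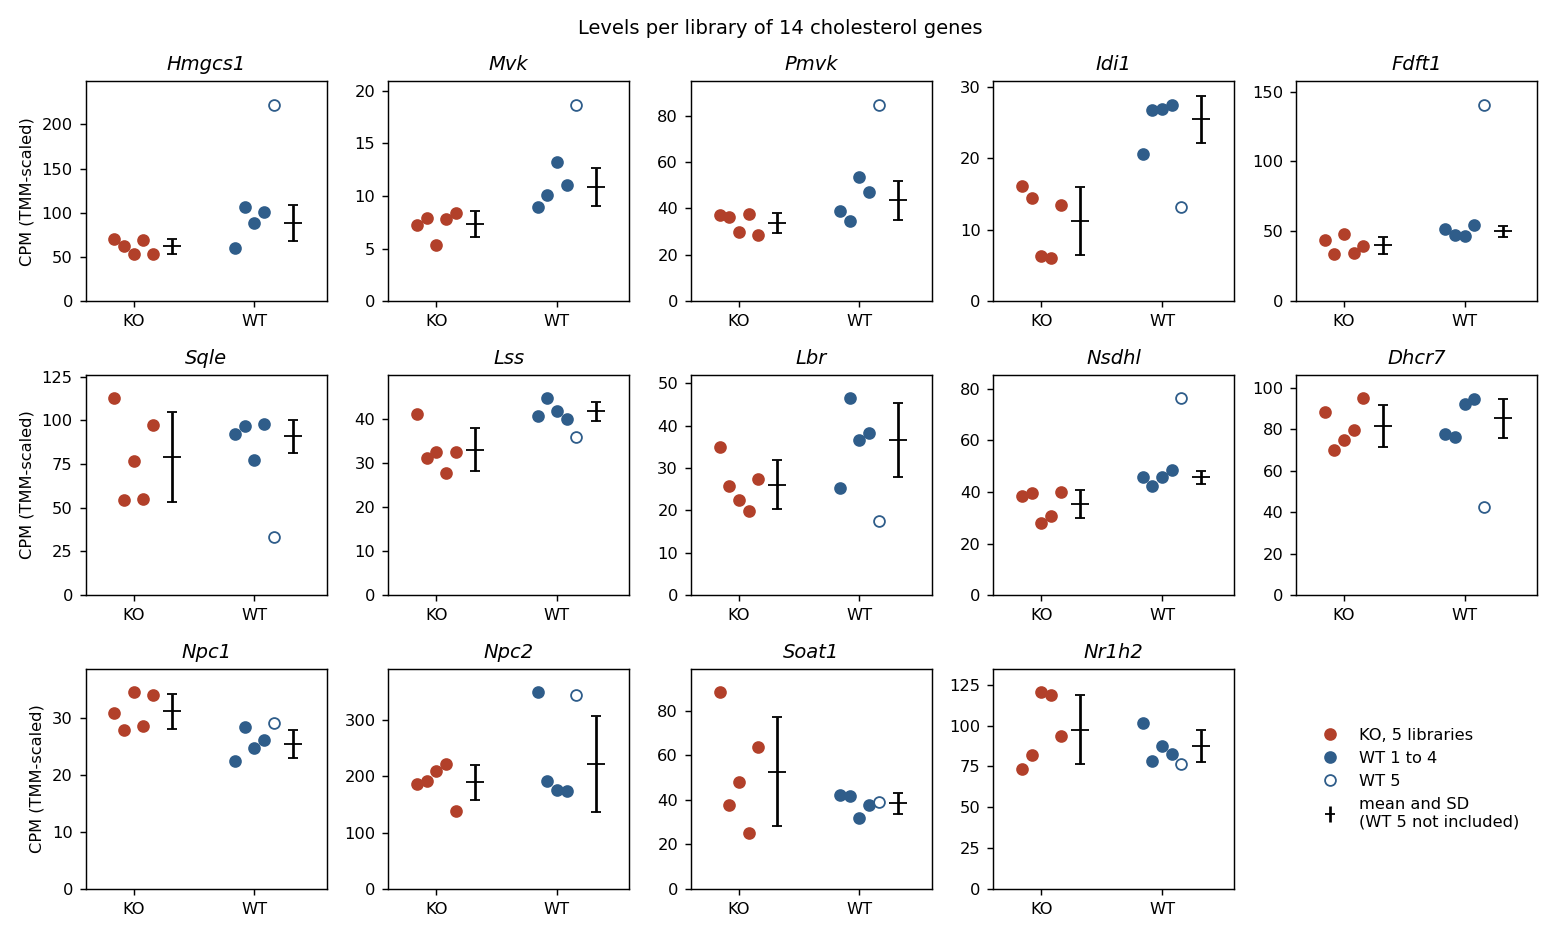
TMM-scaled CPM in each library for 14 genes: those with an unadjusted p under 0.05 or no overlap between groups in either fit, and the most abundant gene of each step. Red points are the 5 KO libraries, filled blue points WT 1 to 4, the open point WT 5, and the black bar the mean and SD without WT 5; for Idi1 the KO libraries sit between 6.03 and 16.1 CPM and WT 1 to 4 between 20.5 and 27.5 CPM.

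Of the 3 enzymes from farnesyl diphosphate to lanosterol, Fdft1 and Lss were lower in KO at an unadjusted p under 0.05 in both fits and Sqle was not. Lss (ENSMUSG00000033105), which closes the ring system to lanosterol, stood at 41.1, 31.2, 32.4, 27.8 and 32.5 CPM in KO 1 to 5, against 40.6, 44.6, 41.7, 39.9 and 36.0 CPM in WT 1 to 5. KO 1 was the KO library that lay among the WT values. KO minus WT in log2 was -0.32 ± 0.12 with 9 libraries and -0.30 ± 0.13 with 10 (edgeR adjusted p = 0.355 and 0.669).

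Fdft1 (ENSMUSG00000021273), squalene synthase, stood at 43.7, 34.0, 48.3, 34.5 and 39.5 CPM in KO 1 to 5, against 51.7, 47.1, 46.5, 54.6 and 141 CPM in WT 1 to 5. Only KO 3 reached the range of WT 1 to 4. The log2 fold change was -0.30 ± 0.12 with 9 libraries and -0.77 ± 0.32 with 10 (edgeR adjusted p = 0.392 and 0.669). In GENCODE M21 18.3% of the Fdft1 exon bases lie opposite exons of Ctsb, the lysosomal cathepsin B, and no source used here says if reads were counted by strand. Ctsb was at 632 to 964 CPM in KO libraries, 646 to 1114 CPM in WT 1 to 4 and 2026 CPM in WT 5, and its part in the Fdft1 counts was not tested.

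Sqle (ENSMUSG00000022351), squalene epoxidase, a controlled step of the sterol branch, stood at 113, 54.3, 77.0, 54.9 and 97.5 CPM in KO 1 to 5, against 92.4, 96.6, 77.2, 97.9 and 33.4 CPM in WT 1 to 5. KO 2 and KO 4 were low and KO 1 was the highest of all, so the KO libraries spread on both sides of WT 1 to 4. KO over WT, this gave a log2 fold change of -0.18 ± 0.22 with 9 libraries and -0.0044 ± 0.31 with 10 (edgeR adjusted p = 0.770 and 0.998).

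After lanosterol, the enzymes of demethylation lay mostly lower in KO and the last steps lay near 0. Nsdhl (ENSMUSG00000031349), a dehydrogenase in the removal of methyl groups, did not overlap between groups in either fit. It stood at 38.3, 39.5, 28.0, 30.7 and 40.0 CPM in KO 1 to 5, against 45.8, 42.4, 45.7, 48.7 and 76.3 CPM in WT 1 to 5. The fit gave a log2 fold change of -0.35 ± 0.13 with 9 libraries and -0.55 ± 0.19 with 10 (edgeR adjusted p = 0.353 and 0.669). Lbr (ENSMUSG00000004880), a sterol reductase that is also the lamin B receptor of the nuclear envelope, stood at 35.0, 25.9, 22.4, 19.8 and 27.5 CPM in KO 1 to 5, against 25.3, 46.4, 36.7, 38.2 and 17.4 CPM in WT 1 to 5. WT 1 and WT 5 lay among or below the KO libraries. On the log2 scale KO differed from WT by -0.47 ± 0.20 with 9 libraries and -0.33 ± 0.27 with 10 (edgeR adjusted p = 0.421 and 0.725).

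Cyp51, the lanosterol demethylase, ranged from 32.4 to 61.9 CPM in KO and from 40.6 to 64.9 CPM in WT libraries, with a log2 fold change of -0.37 ± 0.22 in 9 libraries. Msmo1, the methyl sterol oxidase, ranged from 25.3 to 37.8 CPM in KO and from 31.3 to 42.6 CPM in WT libraries (-0.24 ± 0.15). Tm7sf2, the other sterol reductase of the Lbr family, ranged from 6.84 to 11.4 CPM in KO and from 9.20 to 11.5 CPM in WT libraries (-0.14 ± 0.18). Tm7sf2 shares 12.1% of its exon bases with Vps51 on the same strand, which leaves its counts uncertain. These 3 and Nsdhl and Lbr were negative in every alternative.

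The late enzymes showed no difference larger than the spread between libraries. Dhcr7 (ENSMUSG00000058454), the reductase that ends the pathway, stood at 88.2, 69.8, 74.7, 79.8 and 94.8 CPM in KO 1 to 5, against 77.8, 76.3, 92.0, 94.7 and 42.4 CPM in WT 1 to 5. WT 1 to 4 lay inside the KO range and WT 5 below it, and the log2 fold change was -0.05 ± 0.12 with 9 libraries and 0.09 ± 0.21 with 10 (edgeR adjusted p = 0.899 and 0.901). Sc5d, the desaturase before it, and Ebp, the sterol isomerase, lay at -0.03 ± 0.14 and -0.09 ± 0.11 in 9 libraries. Hsd17b7, the keto reductase of demethylation, lay at 0.04 ± 0.26 and ranged from 14.0 to 26.2 CPM in KO and from 9.61 to 26.7 CPM in WT libraries.

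**Figure D4:**
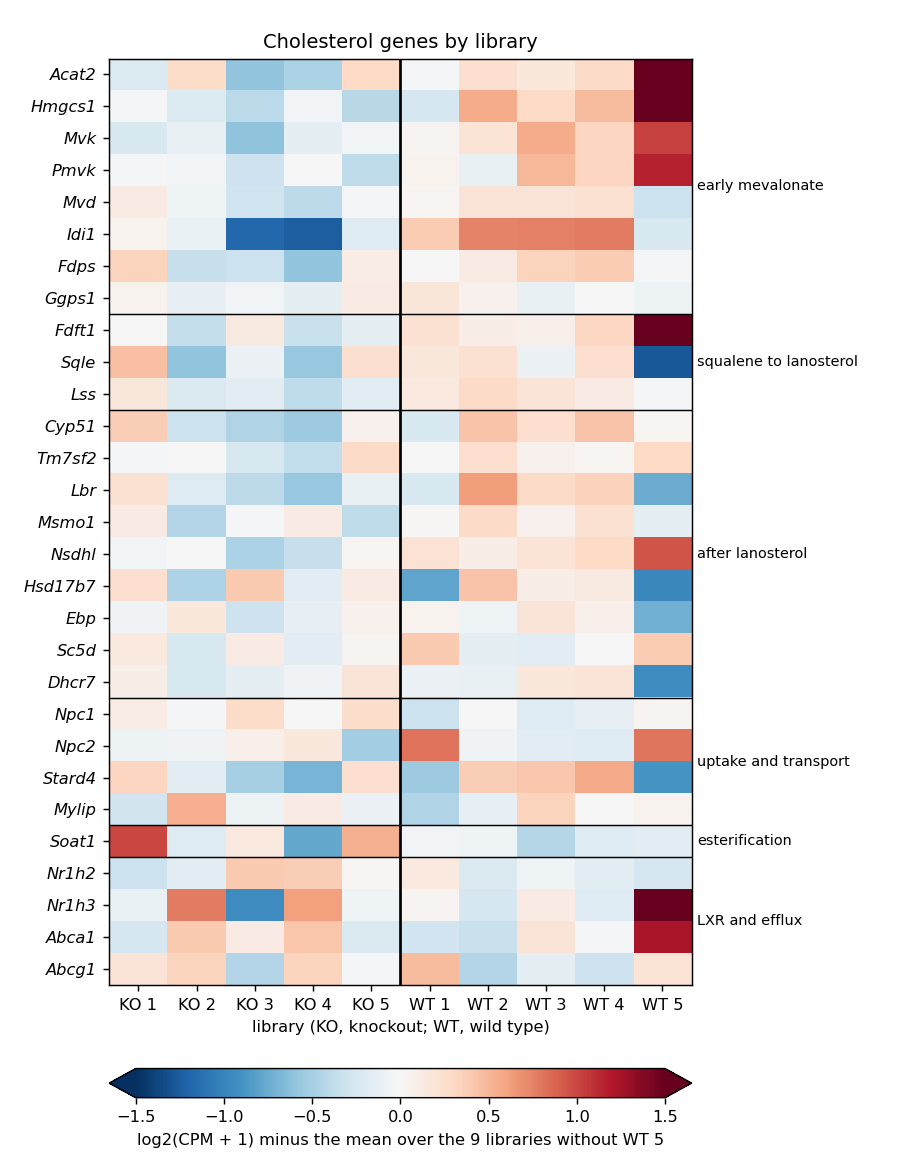
Each cell is the log2(CPM + 1) of a gene (rows, by step) in a library (columns, KO left of WT) minus its mean over the 9 libraries without WT 5; blue is lower, red higher, and colours end at 1.5 in either direction. Idi1 is lowest in KO 3 and KO 4 (6.32 and 6.03 CPM), and WT 5 holds both the highest Hmgcs1 (222 CPM) and the lowest Sqle (33.4 CPM).

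The enzymes did not move evenly over the KO libraries. Among the 9 libraries without WT 5, KO 4 was the lowest for 8 of the 20 enzymes, KO 2 for 5 and KO 3 for 4. KO 1 was the lowest for 0 of the 20, and KO 5 for 2. The same counts were not made over all genes, so they are not shown to be particular to these enzymes. The mean log2(CPM + 1) of the 20 enzymes was 5.25, 4.98, 4.89, 4.84 and 5.15 in KO 1 to 5, against 5.18, 5.39, 5.36, 5.42 and 5.33 in WT 1 to 5. KO 1 therefore lay above WT 1, and the other KO libraries lay below every WT library on this mean.

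Other profiles also differed between these libraries. The 12 proliferation genes summed to 503 to 952 CPM in KO libraries, against 1070 to 1375 CPM in WT 1 to 4 and 113 CPM in WT 5. All 12 were lower in KO in the 9-library fit, with a median log2 fold change of -0.78 and 11 at an unadjusted p under 0.05. KO 4 and KO 3 held the lowest sums (503 and 619 CPM) of the 9 libraries. The directions of the next lists are also those of the 9-library fit. Luminal markers summed to 4024 to 7367 CPM in KO and 4414 to 5831 CPM in WT 1 to 4, with 7 of 12 higher in KO. Adipocyte markers were higher in KO for 12 of 12, of which 3 were at 0 in some library, with sums of 169 to 3100.4 CPM in KO and 155 to 601 CPM in WT 1 to 4. Skeletal muscle markers were also higher in KO for 12 of 12, of which 4 were at 0 in some library, with a median log2 fold change of 3.44 and 2 at an unadjusted p under 0.05. Their sums were 8.06 to 1556 CPM in KO, highest in KO 4, and 8.53 to 92.6 CPM in WT 1 to 4. Fibroblast markers were higher in KO for 9 of 10, with sums of 3368 to 7026 CPM in KO and 180 to 5721 CPM in WT 1 to 4. Endothelial markers were higher in KO for 10 of 10 (191 to 387 CPM in KO and 111 to 274 CPM in WT 1 to 4), and T and NK cell markers for 5 of 6 (2.50 to 6.61 CPM in KO and 3.33 to 4.91 CPM in WT 1 to 4). With all 10 libraries most of these directions reversed. There 11 of 12 adipocyte, 12 of 12 skeletal muscle, 8 of 10 fibroblast and 10 of 10 endothelial markers were lower in KO. All 12 proliferation genes stayed lower, and 9 of 12 luminal and 4 of 6 T and NK cell markers were higher. The part of these profiles in the levels of the cholesterol enzymes was not tested.

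Among the genes that take up and move cholesterol, Npc1 lay higher in KO tumours at an unadjusted p under 0.05 with 9 libraries, and the others had an unadjusted p above it. Npc1 (ENSMUSG00000024413), the lysosomal membrane protein that passes LDL cholesterol out of the lysosome, stood at 30.9, 27.9, 34.6, 28.6 and 34.2 CPM in KO 1 to 5, against 22.5, 28.4, 24.8, 26.1 and 29.2 CPM in WT 1 to 5. KO 2 lay below WT 2 on this scale, whereas with the scaling of the 9-library fit the groups did not overlap. KO minus WT in log2 was 0.31 ± 0.11 with 9 libraries and 0.25 ± 0.13 with 10 (edgeR adjusted p = 0.347 and 0.669), and its sign was positive in every alternative.

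Npc2 (ENSMUSG00000021242), the soluble lysosomal partner that hands cholesterol to Npc1, stood at 187, 191, 209, 221 and 139 CPM in KO 1 to 5, against 349.5, 191, 175, 174 and 345 CPM in WT 1 to 5. WT 1 and WT 5 were far above all other libraries, which overlapped. The log2 fold change was -0.21 ± 0.23 with 9 libraries and -0.38 ± 0.25 with 10 (edgeR adjusted p = 0.739 and 0.686), and without both WT 1 and WT 5 it was 0.09. Stard4, a soluble sterol carrier, ranged from 13.4 to 28.3 CPM in KO and from 11.7 to 33.7 CPM in WT libraries, and Mylip, the ligase that lowers cholesterol uptake, from 45.3 to 80.5 CPM in KO and from 40.0 to 69.6 CPM in WT libraries. Their log2 fold changes were -0.36 ± 0.29 and 0.12 ± 0.20 with 9 libraries.

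Soat1 (ENSMUSG00000026600), which esterifies cholesterol for storage in droplets, varied more between KO libraries than between WT libraries. It stood at 88.4, 37.9, 48.2, 25.2 and 63.7 CPM in KO 1 to 5, against 42.1, 41.7, 32.1, 37.9 and 38.9 CPM in WT 1 to 5. KO 1, KO 3 and KO 5 lay above every WT library, and KO 2 and KO 4 did not. KO 4 was the lowest of all. The mean was 52.7 ± 24.4 CPM in KO and 38.5 ± 4.03 CPM in WT libraries (SD, n = 5 each), and the log2 fold change was 0.47 ± 0.31 with 9 libraries and 0.45 ± 0.29 with 10 (edgeR adjusted p = 0.581 and 0.684).

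The LXR receptors and exporters differed by less than the spread between libraries once WT 5 was left out. Nr1h2 (ENSMUSG00000060601), LXR beta, stood at 73.2, 82.2, 120.5, 119 and 93.8 CPM in KO 1 to 5, against 102, 78.6, 87.8, 82.5 and 76.7 CPM in WT 1 to 5. KO 3 and KO 4 were above every WT library and KO 1 below every one. KO over WT, this gave a log2 fold change of 0.17 ± 0.16 with 9 libraries and 0.19 ± 0.16 with 10 (edgeR adjusted p = 0.700 and 0.737).

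Nr1h3, LXR alpha, which is common in macrophages, fat and liver, took its 10-library value from WT 5. It ranged from 2.11 to 9.15 CPM in KO and from 4.03 to 5.49 CPM in WT 1 to 4, with 55.8 CPM in WT 5. The fit gave a log2 fold change of 0.30 ± 0.38 with 9 libraries and -1.37 ± 0.83 with 10. KO 2 and KO 4, which had its highest levels outside WT 5 (9.15 and 8.13 CPM), also had the highest adipocyte marker sums of the 9 libraries (3100.4 and 3012 CPM). This match was picked after the values were seen. Abca1, the exporter that loads apolipoprotein A-I, ranged from 58.5 to 94.1 CPM in KO and from 55.6 to 80.2 CPM in WT 1 to 4, with 166 CPM in WT 5, and Abcg1, which exports to HDL, from 19.0 to 33.3 CPM in KO and from 19.1 to 36.8 CPM in WT libraries. Their log2 fold changes were 0.24 ± 0.19 and 0.19 ± 0.23 with 9 libraries, and -0.16 ± 0.31 and 0.11 ± 0.23 with 10. Macrophage markers summed to 588 to 979 CPM in KO libraries, 455 to 982 CPM in WT 1 to 4 and 1885 CPM in WT 5. With 9 libraries 4 of the 12 were higher in KO, with a median log2 fold change of -0.06. With 10 libraries 1 of the 12 was higher, with a median of -0.52. The part of adipocytes or macrophages in the levels of these LXR and efflux genes was not tested.

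WT 5 lay at the high end for some genes of the pathway and at the low end for others. It lay above all other 9 libraries for 9 of the 29 genes (Acat2, Hmgcs1, Mvk, Pmvk, Fdft1, Tm7sf2, Nsdhl, Nr1h3 and Abca1) and below all of them for 6 (Sqle, Lbr, Hsd17b7, Ebp, Dhcr7 and Stard4). Fdft1 was at 2.81 times and Sqle, the next enzyme, at 0.367 times the mean of WT 1 to 4. Per unscaled library size WT 5 lay above all others for 4 genes (Acat2, Hmgcs1, Fdft1 and Nr1h3) and below them for 19. The share of all genes for which WT 5 lay at an end was not computed. These counts are therefore not shown to be particular to the pathway. WT 5 had a low sum of luminal markers and high sums of muscle and adipocyte markers, and the part of that profile in these levels was not tested.

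Per length, the genes covered a range from 2.10 to 37.5 CPM per kb of exon, as a mean over the 9 libraries with GENCODE M21 exon lengths. Npc2 was the highest, followed by Nr1h2 at 27.8, Ebp at 24.0 and Pmvk at 22.3 CPM per kb. Tm7sf2 and Nr1h3 were the lowest, at 2.10 CPM per kb each, and Lbr, which shares the reductase step with Tm7sf2, was at 6.47 CPM per kb. Nr1h2 was thus the more abundant LXR transcript.

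Of 32 further cholesterol genes that were listed beside the members, 31 were tested and edgeR called 0 in either fit. With 10 libraries 0 had an unadjusted p under 0.05, against 4.44% of all genes lower and 2.56% higher at that p. With 9 libraries 22 were higher and 9 lower in KO (29% lower), where 46.8% of all genes were lower. At an unadjusted p under 0.05, 2 were lower (6.45%), against 5.85% of all genes, and 2 were higher, against 5.74%. Srebf2 and Insig1, regulators of the pathway, had an unadjusted p above 0.05 in both fits. Srebf2, the SREBP of sterol synthesis, averaged 116 ± 30.5 CPM in KO and 108 ± 14.5 CPM in WT 1 to 4 (SD, n = 5 and 4). Insig1, the sterol-sensing anchor of SREBP, ranged from 25.7 to 74.7 CPM in KO, from 23.2 to 44.3 CPM in WT 1 to 4, and was at 143 CPM in WT 5.

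Ch25h, which makes an oxysterol from cholesterol, was at 0.899 to 1.24 CPM in KO, against 1.42 to 4.67 CPM in WT 1 to 4 and 0.534 CPM in WT 5. KO lay below WT 1 to 4 throughout, by -1.23 ± 0.36 on the log2 scale with 9 libraries (edgeR adjusted p = 0.299), and another gene lies opposite 11.5% of its exon bases. Nceh1, a hydrolase of cholesterol esters, and Gramd1b, a sterol carrier between membranes, were higher in KO by 0.45 ± 0.20 and 0.37 ± 0.16 on the log2 scale (edgeR adjusted p = 0.427 for both).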

How the data were processed

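Polyadenylated RNA of whole mammary tumours was sequenced from stranded libraries, per the labels' protocols. The authors deposited raw read counts per Ensembl gene, 1 column per library, not normalized. Per the submitters' processing notes, the tools were FastQC, STAR, featureCounts and DESeq2, and GRCm39 was the build. No source used here gives versions, annotation release, strand setting or multi-mapping, so reads of overlapping genes may have been dropped or shared. There were 0 columns without a sample.

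KO was compared with WT in edgeR 4.0.16 (R 4.3.3, quasi-likelihood F-test, robust, TMM, filterByExpr), over all genes, with Benjamini-Hochberg adjustment at 0.05, on 10 libraries and on 9 without WT 5. The SE is the size of the log2 fold change divided by the square root of F. CPM of every library use the TMM factors of the 10-library fit, while each fold change uses its own fit. Alternatives were RLE and unscaled sizes, DESeq2 1.42.0, limma-voom 3.58.1 with sample quality weights, no filter, at least 10 counts per library, sums per leading number, a random block for it, and leaving out each library. The fits were checked on simulated counts. Counts of any 2 replicates differed by more than sampling noise (chi-square over degrees of freedom of 20.8 or more). Each library carries its own batch label, so no within-batch value exists and batch and group cannot be told apart.

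The members, lists, left-out library and rules were chosen with earlier results of these data known. Values in every library are given for members with an unadjusted p under 0.05 or no overlap in either fit and for the most abundant member of each step. Of the further genes, Srebf2, Insig1 and those under that p are named; some of the genes on that list are not reported here. Map2, Ccnb2 and the genes of WT 1 were chosen after their values were seen. Exon overlaps and lengths came from GENCODE M21 and promoters from RefSeq, both GRCm38; no coordinates were carried over to the counts.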

Additional observations from a re-analysis of the deposited data

Results flagged for a closer look

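In 6 of the 58 groups of 5 libraries (29 genes, KO and WT), 1 library lay apart from the other 4 by Dixon's gap test at the 95% level. Chance flags about 1 in 20 such groups, and all 6 were the same library, WT 5, as the highest WT value. Acat2 stood at 133 CPM there, against 40.4 to 50.2 CPM in WT 1 to 4. Hmgcs1 stood at 222 CPM, against 59.9 to 106 CPM. Fdft1 stood at 141 CPM, against 46.5 to 54.6 CPM, and Nsdhl at 76.3 CPM, against 42.4 to 48.7 CPM. Nr1h3 stood at 55.8 CPM, against 4.03 to 5.49 CPM, and Abca1 at 166 CPM, against 55.6 to 80.2 CPM. These levels carry the TMM factor of that library (0.588). No KO library was set apart in this way for any of the 29 genes.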

How the results depend on the processing

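The count of called genes depended on the tool. With 10 libraries edgeR called 0 genes, DESeq2 54 and limma-voom with quality weights 17. With 9 libraries edgeR called 2, DESeq2 463 (1 member, Idi1), limma-voom 143, unscaled sizes 1, and sums per leading number or that number as a block 0. Leaving out 1 library gave 0 to 2 genes from 10 and 0 to 1 from 9. The median of the 20 synthesis enzymes and the count of negative members lay, over all alternatives of both fits, from -0.41 to -0.18 in log2 and from 17 to 22 of 29. No paired analysis was possible because no KO library shares a leading number or a batch label with a WT library. All alternatives could be fitted.

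None of the members whose sign changed was called, and the cause was not tested. With 10 libraries the log2 fold change changed sign with unscaled sizes for Ggps1 (0.085), Sqle (0.049), Sc5d (0.036) and Abca1 (0.10). With limma-voom weights it did so for Ggps1 (0.055), Hsd17b7 (-0.049), Ebp (-0.11), Sc5d (0.073), Dhcr7 (-0.095), Mylip (-0.12) and Nr1h3 (0.084). Sqle also turned positive without a filter (0.0012), with at least 10 counts (0.0041), with sums (0.21) and with the block (0.15), as did Ggps1 (0.0015) and Stard4 (0.020) with sums. With 9 libraries limma-voom weights turned Ggps1 (0.062), Hsd17b7 (-0.042), Sc5d (0.084), Mylip (-0.10) and Abca1 (-0.026), and sums turned Hsd17b7 (-0.016).

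Leaving out 1 library of the 10 gave ranges across 0 for Ggps1 (-0.076 to 0.011), Sqle (-0.18 to 0.11), Ebp (-0.092 to 0.091), Dhcr7 (-0.049 to 0.18), Mylip (-0.055 to 0.20), Nr1h3 (-1.61 to 0.30) and Abca1 (-0.28 to 0.24). From the 9 it did so for Ggps1 (-0.090 to 0.0087), Hsd17b7 (-0.16 to 0.20), Sc5d (-0.097 to 0.10), Dhcr7 (-0.11 to 0.0065), Npc2 (-0.31 to 0.088) and Mylip (-0.026 to 0.28). WT 5 is 1 library, and intervals rest on 4 or 5 libraries a group.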

Other observations

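Some levels in WT 1 lay at an end of the range, for genes chosen after their values were seen. It held the highest level of all 10 libraries for Npc2 (349.5 CPM, with WT 5 at 345 CPM), for Lipa, the lysosomal acid lipase that frees cholesterol from its esters (493 CPM, against 100.4 to 407 CPM elsewhere), and for Stard3, a sterol carrier of late endosomes (82.5 CPM, against 21.8 to 80.4 CPM). It held the lowest level of all 10 libraries for Npc1 (22.5 CPM), and Stard5, another sterol carrier, was at 122 CPM, inside the 115 to 128 CPM of WT 2 to 4. Its levels of Hsd17b7 (10.9 CPM) and Stard4 (15.1 CPM) were the lowest of WT 1 to 4, whose other members had 21.2 to 26.7 and 29.1 to 33.7 CPM. Fibroblast markers summed to 180 CPM in WT 1, against 1487 to 12248 CPM in the other 9 libraries, and the part of that in these levels was not tested.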
